A study of Vitis vinifera with 54 samples.

Results

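A single gene, LOC100241706, met the rule that was set for ripening genes whose transcript had not yet risen at the color transition period in zone HSB, out of 25133 genes measured in the flesh of Chardonnay berries. The gene was chosen by measured values, namely a difference of at least 2 on the log2 scale between the maturity period and the enlargement period in all 6 zones, and a difference below 0.5 between the color transition period and the enlargement period in HSB. The first condition was met by 0.804% of all genes (202), or by 195 genes once 11 listed IDs had been left out (5 ripening or thaumatin-like genes and 6 phenylalanine ammonia-lyase genes), and 194 of these 195 genes were past 0.5 in HSB. The second alone was met by 91.6% of all genes. Of the IDs left out, 1, LOC100251137, would also have met both conditions, with -0.15 at the second.

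The berries came from 6 ecological zones in Ningxia, China (HSB, HJZ, ZHYS, CC, XG and XLS) and were taken at 3 stages, named E for the enlargement period at 40 DAP, V for the color transition period at 80 DAP, and M for maturity at 120 DAP, where DAP counts days from early flowering. All 18 groups were Chardonnay flesh without skin or seeds, with no treatment named, and had 3 biological replicates of 15 fruits each. The labels separate the groups by stage and zone alone, and a group is named by both, as in V-HSB. Whether the replicates of a group came from separate vines is not stated in the sources used here, so the p-values measure the spread between these samples. The values are TPM, a measure of transcript abundance that is corrected for gene length and sums to the same total in every library.

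A grape berry grows, pauses and grows again, and the color transition period (veraison) begins its ripening. At this point the flesh softens, hexose sugars accumulate in the vacuoles, organic acids decline and the hormone abscisic acid rises, and a large set of transcripts is switched on and remains high until harvest. The berries of one cluster do not pass this point on the same day. A sample of mixed flesh therefore holds berries and cells that are at different steps, and in such bulk RNA more cells with a transcript and more of the transcript per cell cannot be told apart.

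LOC100241706 is listed as misc_RNA in the RefSeq gene table, a class for transcripts that are not given another type, and it has no symbol of its own. No product name or role is given for it here. On the reference assembly no listed gene overlapped it. The nearest listed genes on its sides were LOC100253468 and LOC100248369, both protein-coding, whose levels over the 18 groups had Pearson correlations of 0.10 and -0.52 with those of LOC100241706 (a description across 18 group means that share libraries).

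Libraries differed in composition, since the 100 most abundant genes held from 27.6% to 63.8% of the TPM of a library. Each library was therefore divided by a median-of-ratios factor (0.64 to 1.45 over the 54 libraries), and the result is called rescaled TPM. E-HSB had the lowest shares of all libraries (27.6%, 30.3% and 29.5%) and the highest factors (1.45, 1.43 and 1.45). V-HSB came next in both. In TPM without rescaling LOC100241706 averaged 13.7 in E-HSB, against 1.59 in E-XG to 4.29 in E-XLS among the other E groups. Levels are the group means of log2(rescaled TPM + 1) where a log2 level or difference is given, which understates the changes of low genes. V-XLS stood apart from the other groups, because its replicates correlated at 0.948 to 0.991 on this scale, while outside V-XLS the lowest correlation between replicates was 0.977. Replicate 2 of V-XLS was the library in question. The main XLS values and the tests between V groups that rest on it are given with and without it.

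In HSB the transcript was already present well above its level elsewhere at the enlargement period, changed little at the color transition period and was then several times more abundant at the maturity period. LOC100241706 had 8.61, 9.18 and 10.8 rescaled TPM in the replicates of E-HSB. The replicates of V-HSB had 11.4, 13.4 and 14.3 rescaled TPM. In M-HSB the values were 83.0, 98.5 and 85.0 rescaled TPM. The 3 stages did not overlap in HSB, although the step between E-HSB and V-HSB was small. The V minus E difference was 0.41 ± 0.21 on the log2 scale (SD of the difference, n = 3 each) and the M minus V difference 2.68 ± 0.20. Both were used by the rule, the second through its other terms, and are given without a test. In the deposited TPM without rescaling, where V-HSB averaged 16.9 ± 2.004 TPM and E-HSB 13.7 ± 1.63 TPM (SD, n = 3 each), the log2 difference between V-HSB and E-HSB was 0.28.

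In the other zones the gene started lower. At the enlargement period the 3 replicates had 1.80, 3.79 and 2.80 rescaled TPM in HJZ, and 2.57, 3.02 and 4.96 in ZHYS. They had 1.35, 1.65 and 1.31 rescaled TPM in CC, and 1.34, 1.39 and 2.34 in XG. E-XLS had 1.85, 6.70 and 2.69. Every E-HSB library was thus above all 15 libraries of the other 5 E groups. The log2 level of E-HSB was 3.39, against a mean of 1.77 over the other E groups, a difference of 1.62.

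At the color transition period HSB lay between the other zones. The replicates of V-HJZ had 14.3, 16.6 and 17.6 rescaled TPM, and those of V-CC had 19.2, 21.4 and 12.5. V-ZHYS had 7.72, 7.80 and 7.78 rescaled TPM, and V-XG had 6.86, 7.76 and 4.13. In V-XLS the values were 25.1, 10.1 and 33.5, of which 10.1 belongs to replicate 2. The V-HSB libraries lay above every V-ZHYS and V-XG library and just below every V-HJZ library (14.26 in the highest V-HSB library and 14.30 in the lowest V-HJZ library). The log2 level of V-HSB was 3.804, against a mean of 3.73 over the other V groups. This difference was smaller than the SD of the V-HSB replicates (0.15). Without replicate 2 the V-XLS level was 4.91 in place of 4.43, which puts that mean slightly above V-HSB. The working description of the gene as not yet rising in V-HSB therefore holds only as a V minus E difference below 0.5 within HSB. Every V-HSB library was still above every E-HSB library. The level of the gene in V-HSB was between those of the other zones, and the small difference went together with a high E-HSB level.

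**Figure D1:**
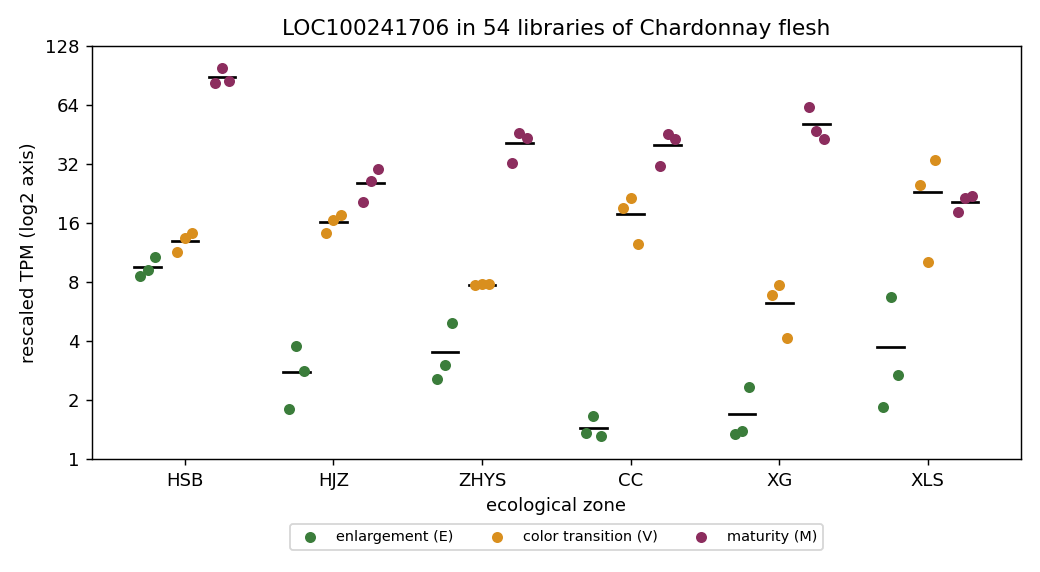
Rescaled TPM of LOC100241706 (vertical axis, log2 scale) in each library, by zone and stage; points are the 3 replicates of a group and black lines their mean. E-HSB averaged 9.52, above the other E groups, V-HSB averaged 13.0, between V-ZHYS (7.77) and V-HJZ (16.2), and M-HSB had the highest mean, 88.8.

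At the maturity period HSB was again highest. M-HJZ had 20.4, 26.2 and 30.1 rescaled TPM, M-ZHYS 32.4, 46.1 and 43.6, and M-CC 31.3, 45.5 and 42.9. M-XG had 62.7, 47.0 and 43.0, and M-XLS had 18.3, 21.4 and 21.9. All M-HSB libraries were above all libraries of the other M groups. The log2 level of M-HSB was 6.49, against a mean of 5.10 in the other zones, a difference of 1.38 (SE 0.23), and 1.5% of all genes had a difference at least this large. Among the 194 other ripening genes it was less rare, since 48 had a larger difference (median 0.44). No p is given for the difference of LOC100241706, because the rule asks for a high M level in HSB once the E level there is high. HSB minus the mean of the other zones was thus 1.62 at E, 0.07 at V and 1.38 at M on the log2 scale. The value at V was within the spread of the V-HSB replicates, and its sign depended on replicate 2 of V-XLS.

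Ordered by log2 level, the 18 groups ran from E-CC (1.28) to M-HSB (6.49), and E-HSB stood 8th from the bottom, above V-XG (2.82) and V-ZHYS (3.13). Of the 17 pairs of neighbours in this order, 12 had replicate values that overlapped. The pairs without overlap were V-ZHYS and E-HSB, E-HSB and V-HSB, V-HSB and V-HJZ, M-HJZ and M-CC, and M-XG and M-HSB. The groups E-HSB and V-HSB were thus each set off from both of their neighbours in the order, but not from all groups. The replicates of V-XLS ran from 3.47 to 5.11, a range that overlapped both E-HSB (3.26 to 3.56) and V-HSB (3.64 to 3.93). Both overlaps came from replicate 2 (3.47) alone, since replicates 1 and 3 of V-XLS were at 4.71 and 5.11. Those of V-CC (3.76 to 4.48) overlapped V-HSB. M-XLS (4.42) and V-XLS (4.43), also neighbours in the order, had the same level within their spread. Without replicate 2 V-XLS was at 4.91, and its remaining libraries were above every M-XLS library (4.27 to 4.52).

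The size of the early step in the other zones is given as a description, since the E libraries chose the gene and only the V libraries of these zones did not. The V minus E difference was above 1 on the log2 scale in 4 of the 5 other zones. It was 2.21 ± 0.41 in HJZ, where 10.1% of all genes were higher by more than 1, and 2.91 ± 0.40 in CC (9.6% of all genes). In XG it was 1.41 ± 0.50 (7.96% of all genes). In XLS it was 2.32 ± 1.13 (7.78% of all genes), and 2.79 without replicate 2 of V-XLS. ZHYS had 0.99 ± 0.39 (SD of the difference, n = 3 each). The share of all genes higher by more than 1 was 8.38% in ZHYS and 3.1% in HSB.

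The later step contains the same V level, and with M minus E of at least 2 by the rule it is tied to the early step. M minus V was 2.86 ± 0.49 on the log2 scale in XG and 2.23 ± 0.27 in ZHYS, where 6.26% and 3.99% of all genes were higher by more than 1. It was 1.14 ± 0.48 in CC (1.19% of all genes) and 0.62 ± 0.31 in HJZ (1% of all genes). XLS, where 0.454% of all genes were higher by more than 1, had a difference of -0.01 ± 0.86, or -0.48 without replicate 2 of V-XLS. In HSB, where 8.45% of all genes were higher by more than 1, the difference of 2.68 given above was within the range of XG and ZHYS. Over the whole period M minus E ran from 2.31 in XLS to 4.27 in XG and was 3.10 in HSB, all at least 2 by the rule.

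The V level was also placed between the E level (0%) and the M level (100%) of its own zone. LOC100241706 was at 13.4% in HSB, at 30.8% in ZHYS and at 33.1% in XG. It was at 71.8% in CC and at 78.1% in HJZ. In XLS it was at 100.2% (120.9% without replicate 2 of V-XLS, and 58.9% in that replicate alone). The HSB value was bound to be low, because the rule set V minus E below 0.5 and M minus E at least 2 there. As a description only, ZHYS and XG were nearer to HSB than to the remaining zones by this measure.

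The V libraries of the 5 other zones took no part in the rule, so the differences between them were tested with limma in one fit of all 18 groups, with Benjamini-Hochberg adjustment over the 25133 genes. The 5 V groups differed in LOC100241706 (range of the log2 levels 1.61, adjusted p = 9.27e-06, F test), as did 17.4% of all genes. Such a difference was usual among the 194 other ripening genes, of which 155 were called in this test (median range 1.73). V-XG was lower in LOC100241706 than the mean of the 4 others by a log2 difference of -1.14 (SE 0.23, adjusted p = 0.000101), and 2.78% of all genes were called lower in V-XG, where a call also needs a difference above 1. Of the 194 other ripening genes, 51 were called lower in V-XG and 17 higher. Without replicate 2 of V-XLS the range of LOC100241706 was 2.09 (limma adjusted p = 4.48e-08) and its difference in V-XG -1.26 (adjusted p = 1.87e-06). The difference fell short of the limit of 1 without replicate 3 of V-XG (-0.91, adjusted p = 0.00681).

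V-ZHYS had -0.75 (SE 0.23, adjusted p = 0.00778) and V-XLS 0.87 (SE 0.23, adjusted p = 0.00412) against the 4 others, both within the limit of 1. In these directions 1.87% of all genes were called in V-ZHYS and 0.836% in V-XLS. Without replicate 2 the difference of V-XLS was 1.35 (SE 0.23, adjusted p = 1.09e-05), and then 2.03% of all genes were called higher in V-XLS, while V-ZHYS had -0.87 (adjusted p = 0.000392). Without replicate 3 of V-XLS its difference was 0.53 (adjusted p = 0.169), and without replicate 1 it was 0.73 (adjusted p = 0.0622). In a limma fit of only the 5 V groups compared, the adjusted p was 0.0722 for V-ZHYS and 0.0721 for V-XLS, and neither passed. V-CC (0.57, 95% confidence interval 0.10 to 1.04, adjusted p = 0.0575) and V-HJZ (0.45, interval -0.02 to 0.92, adjusted p = 0.154) did not pass the test, and 1.68% and 0.601% of all genes were called higher there. Without replicate 2 of V-XLS, V-CC had 0.45 (limma adjusted p = 0.0766) and V-HJZ 0.33 (limma adjusted p = 0.24). V-CC had 0.27 (adjusted p = 0.453) in TPM without rescaling, and its limma adjusted p was 0.0377 when genes averaging under 1 TPM were left out. V-XG was thus the lowest of these V groups and V-ZHYS the next.

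**Figure D2:**
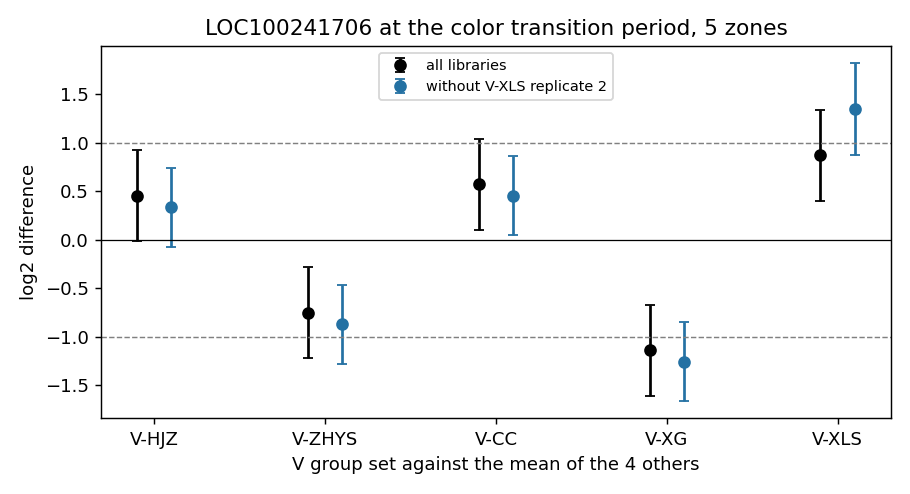
Log2 difference of LOC100241706 between each V group and the mean of the 4 other V groups outside HSB (points) with 95% confidence intervals from limma, with all libraries in black and without replicate 2 of V-XLS in blue. Dashed lines mark the limit of 1, which V-XG (-1.14) passed, and V-XLS passed only without replicate 2 (1.35).

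The change between E and V was set side by side between the same 5 zones as well, as a description without a test, because the E libraries in it chose the gene. On the log2 scale the change in ZHYS differed from the mean change of the 4 others by -1.22 (SE 0.33) and that in CC by 1.18 (SE 0.33). In deposited TPM without rescaling the difference of CC was 0.61 and that of HJZ 0.76, in place of 0.30 (SE 0.33). XG had -0.69 and XLS 0.44, or 0.91 without replicate 2 of V-XLS. ZHYS and CC thus had the smallest and the largest change of these zones, in the order of the V minus E values given above.

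Compared with the 194 other ripening genes, LOC100241706 had a level below the median at each stage. Its mean log2 level was 2.04 over the 6 E groups, against a median of 2.14 for the others, and 3.75 over the V groups, against 5.24, where 154 of the 194 genes were above it. Over the M groups it was 5.33, against 6.33. The others had a median V minus E difference of 2.48 in HSB, with a lowest value of 0.78, and their median V level in HSB was at 52.7% of the way from E to M. The V position of LOC100241706 was low among these genes in most other zones too. It was below that of 167 of the 194 genes in ZHYS (median 70.3%) and below that of 162 in CC (median 89.4%). In XG it was below 151 (median 75.003%) and in HJZ below 138 (median 91.0%). In XLS it was above 125 of the 194 genes (median 94.3%).

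In HSB the gene differed from most of the others at both E and V, by values that took part in the choice and are given as a description, since a small V minus E difference there favours a high E-HSB level. E-HSB minus the mean of the other E groups was 1.62 for LOC100241706, against a median of -0.27 over the 194 genes, whose highest value was 1.28. Of the 194 genes, 5 were above 1. Over all genes 5.62% were above 1 and 2.2% were at or above 1.62. V-HSB minus the mean of the other V groups was 0.07 for LOC100241706, against a median of -0.86 over the 194 genes, of which 168 were lower. Over all genes 41.6% were at or above the value of LOC100241706. Of the 194 genes, 103 were lower in V-HSB than in every other V group, which LOC100241706 was not. The share of all genes with this order was not worked out, so the count is not read as particular to ripening genes.

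**Figure D3:**
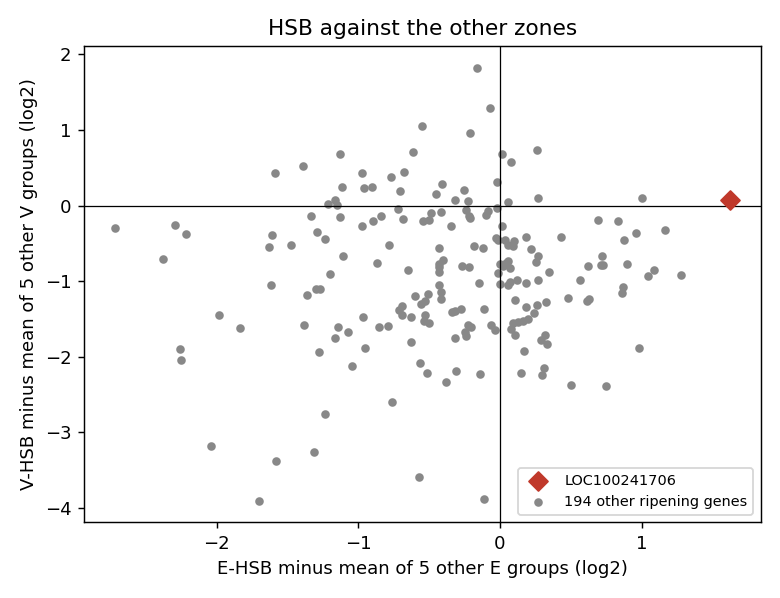
HSB minus the mean of the 5 other zones on the log2 scale, at the enlargement period (horizontal axis) and at the color transition period (vertical axis), for LOC100241706 (red diamond) and the 194 other ripening genes (grey points). LOC100241706 lies farthest to the right (1.62) and close to 0 on the vertical axis (0.07), while the others have medians of -0.27 and -0.86.

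The limit of 0.5 was applied to the other zones in the same way to show how often ripening genes stayed below it there. Of the 195 ripening genes, 1 had a V minus E difference below 0.5 in HSB, against 17 in HJZ, 14 in ZHYS, 9 in XG, 1 in CC and none in XLS. Over all genes the share below 0.5 was 91.6% in HSB, and it was not worked out for the other zones. The median difference over the 195 genes was 2.47 in HSB and ran from 2.18 in ZHYS to 3.86 in CC elsewhere. The median V position was lowest in HSB (52.4%) and ran from 69.9% in ZHYS to 94.3% in XLS in the other zones. The position also depends on M minus E. Its median over the 194 other ripening genes was largest in HSB (4.53) and ran from 3.24 in ZHYS to 4.34 in CC elsewhere. Ripening genes in HSB thus had a low median position at the color transition period, but 194 of 195 had a difference of 0.5 or more.

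**Figure D4:**
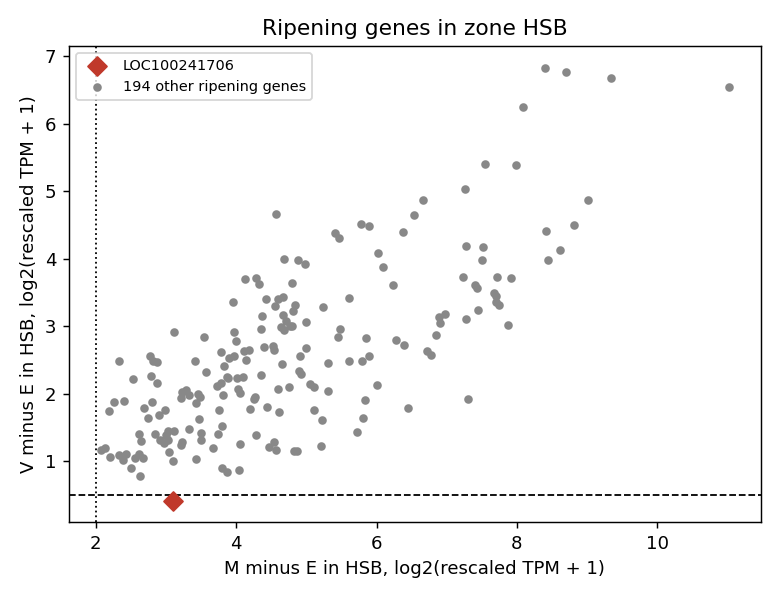
V minus E (vertical axis) against M minus E (horizontal axis) in zone HSB on the log2 scale for the 195 ripening genes, with the limits of 0.5 (dashed) and 2 (dotted). LOC100241706 (red diamond, 0.41) is the only gene under the dashed line, and the lowest of the 194 others (grey) is at 0.78.

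Genes on either side of the limits show how sharp the selection was. LOC100241706 was inside the first limit with 0.41 and inside the M minus E limit with 2.31 in XLS, the zone where it met it least well. The nearest genes outside the V minus E limit were LOC109121836 with 0.78, LOC100853130 with 0.84 and LOC100267452 with 0.87. All of these had lower log2 levels in V-HSB than in the mean of the other V groups (2.85 against 3.51, 2.55 against 3.71, and 4.402 against 5.19). LOC100241706 was close to that mean. Like LOC100241706, all were higher in E-HSB than in the mean of the other E groups (2.06 against 1.35, 1.71 against 0.85, and 3.53 against 2.82). Their M-HSB levels were also above the mean of the other M groups (4.69 against 4.04, 5.58 against 4.17, and 7.58 against 6.13). The choice of these genes by a small V minus E difference in HSB favours a high E-HSB level. With M minus E of at least 2 it then favours a high M-HSB level, so the likeness is a description only.

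The nearest genes outside the M minus E limit were LOC100251088, LOC100256990 and LOC100243163, whose lowest M minus E differences were 1.82 in ZHYS, 1.81 in XG and 1.80 in HSB. LOC100243163 had a log2 level of 4.26 in V-HSB, against 5.95 in the mean of the other V groups, and 3.84 in E-HSB, against 2.08 in the other E groups. With an M minus E limit of 1.5 the rule found 11 genes, with 1 it found 116 genes, and with 2.5 none. With a V minus E limit of 1 it found 6 genes.

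LOC100251088 came closest to joining. It was found together with LOC100241706 when TPM was not rescaled, after quantile normalization, and without replicate 1 of E-ZHYS, so the number of genes was then 2. Its log2 levels in HSB were 2.08 at E, 2.20 at V and 5.58 at M, against means of 0.98, 2.53 and 3.86 in the other zones, so that HSB was higher at E and M and lower at V. With a pseudocount of 0.1 in place of 1 the rule found 5 genes, again with both of them. LOC100241706 met the rule in each of these settings and without any 1 of the 54 libraries. Its V minus E difference in HSB ran from 0.351 to 0.498 over the left-out libraries.

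The genes whose levels were most like those of LOC100241706 were sought by the Pearson correlation of log2 levels over the 18 group means, among 18522 other genes with a group mean of at least 1 rescaled TPM; this measure was chosen after its values were seen. The groups share libraries with the rule, and the correlation is a description without a test. The 5 highest were LOC100260911 (0.962), LOC100261408 (0.959), LOC100251088 (0.958), LOC100854679 (0.957) and LOC100853379 (0.954), and 205 genes were at 0.9 or more. None of the 5 was among the 195 ripening genes, since their lowest M minus E differences were between 0.66 and 1.82. Since HSB gives 3 of the 18 values behind the correlation, the choice itself favours genes with a like pattern there. Their E-HSB levels were 0.14 to 1.10 above the mean of the other E groups on the log2 scale, and their M-HSB levels 0.22 to 1.72 above that of the other M groups. Their V-HSB levels differed from the mean of the other V groups by -0.34 to -0.01. That of LOC100241706 differed by 0.07, a value whose sign depended on replicate 2 of V-XLS.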

How the data were processed

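The authors removed low-quality, adapter and N-containing reads, aligned the clean reads with HISAT2, counted fragments per gene with featureCounts and deposited TPM, rounded to 2 decimals, with replicates not pooled (0 columns were left out). The reference is given as a grapevine annotation of Ensembl Plants, while the deposited table has NCBI gene IDs. Tool versions and the name of the genome build are not given in the sources used here. TPM keeps no sequencing depth, so the precision of a value is known only from its replicates.

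Here TPM was divided by median-of-ratios factors (16546 genes above 0 in all 54 libraries), and log2(x + 1) was fitted with limma 3.58.1 in R 4.3.3 (18 group means, variance trend, 36 residual degrees of freedom). A gene was called at an adjusted p below 0.05 and an absolute log2 difference above 1. The fit was tested on simulated data. Descriptions used Python 3.11.15, numpy 2.4.6 and pandas 2.3.3, and figures matplotlib 3.10.9. No low-value filter was used. The gene and the lists were chosen with earlier results of these data known.

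Symbols and gene order came from the RefSeq table of ASM3070453v1, in which 23256 IDs were found. It holds no product names or sequences, so the lists of roles and of seed and skin markers, which were defined by words in product names, could not be applied, and whether skin or seed tissue was present was not tested. Named genes are the one found, the 3 nearest genes outside each limit, its neighbours and the 5 most like it (the last 2 kinds chosen after values were seen). The planned tests of M-HSB and of the E to V changes between zones are given without p, because the rule bears on them. Alternatives were no rescaling, quantile normalization, a pseudocount of 0.1, a mean TPM of at least 1, a replicate block, only the groups compared, and leaving out each library.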

Additional observations from a re-analysis of the deposited data

How the results depend on the processing

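The number of genes that met the rule was 1, and it was 2 in TPM without rescaling, 2 after quantile normalization and 5 with a pseudocount of 0.1. Leaving out single libraries gave 1 to 2 genes, and 2 only without replicate 1 of E-ZHYS. In TPM without rescaling, V-XLS against the 4 other V groups passed the limit (1.03) and the change in CC differed from the 4 others by 0.61 in place of 1.18; this scaling moved the median change of all genes between E and V by -0.21 in CC. Over all alternatives other than leaving out libraries, the limma adjusted p ran from 0.00118 to 0.0721 for V-XLS, from 0.0046 to 0.0722 for V-ZHYS, from 0.0377 to 0.453 for V-CC, from 4.9e-05 to 0.0117 for V-XG and from 0.0851 to 0.347 for V-HJZ. M-HSB against the other M groups was 1.12 in TPM without rescaling and 1.19 after quantile normalization, in place of 1.38. Without rescaling the median change of all genes between E and M moved by -0.27 in HSB. After quantile normalization the V position in ZHYS was 37.5% in place of 30.8%. The cause was not tested.

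Leaving out each library gave -1.30 to -0.91 for V-XG, 0.53 to 1.35 for V-XLS, -0.87 to -0.67 for V-ZHYS, 0.43 to 0.79 for V-CC and 0.33 to 0.54 for V-HJZ at the color transition period. The call for V-XG was lost without replicate 3 of V-XG (-0.91), and V-XLS was called without replicate 2 of V-XLS (1.35). For V-CC the adjusted p ran from 0.0196 to 0.31. The range over the 5 V groups was 1.37 to 2.09, and M-HSB against the other M groups 1.31 to 1.43. For the changes between E and V it was -1.37 to -1.001 in ZHYS and 1.03 to 1.39 in CC, and -0.85 to -0.46 in XG, 0.10 to 0.91 in XLS and 0.10 to 0.48 in HJZ. The V position ran from 75.9% to 80.9% in HJZ, 30.7% to 30.9% in ZHYS, 68.2% to 77.1% in CC, 29.5% to 38.5% in XG, 85.6% to 120.9% in XLS and 11.3% to 16.1% in HSB.

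The replicate numbers pair nothing by the labels. Same-numbered V libraries had correlations of their deviations between -0.45 and 0.54 (median 0.02, against -0.02 for different numbers). These medians were 0.08 and -0.03 at E, and -0.02 and 0.01 at M. Of the 3 replicate numbers, 27 of 54 libraries correlated best with their own. Whether this is more than unpaired libraries would give was not tested. With the replicate number as a block no call changed, and V-XG was -1.14 (adjusted p = 8.57e-05).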
